A study of Mus musculus with 18 samples.

Results

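The inner root sheath and companion layer keratins are the 9 genes Krt25, Krt26, Krt27, Krt28, Krt71, Krt72, Krt73, Krt74 and Krt75, taken by symbol from a table of 52636 genes, and each of them was found once. Counts came from EpCAM+ CD45- CD140a- CD31- epidermal cells of 3 tissues: mock skin, skin without tumor from DMBA/TPA-treated mice (treated skin here), and their papillomas (tumors). In this protocol the mutagen DMBA initiates tumors and the phorbol ester TPA, painted repeatedly, promotes their growth. Each tissue came from Zfp36 fl/fl mice, which carry floxed alleles of the gene for the mRNA-destabilizing protein tristetraprolin, and from their ΔEP littermates (ΔK14 in the labels), in which a Cre driven by the human keratin 14 promoter removes it. All mice were C57BL/6, were 8 weeks old at the start of the protocol, and treated mice received 6.5 nmol TPA from day 14 on. Keratin 14 is made in the basal layer of the epidermis and in the outer root sheath, and mock ΔEP skin carries the deletion too. The sources used here do not give the hair cycle stage at collection, the vehicle of mock skin, or how many mice each library came from, so p-values measure the spread between these libraries, which may be partly technical.

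The inner root sheath is the stiff tube that guides the growing hair, and the companion layer is the single cell layer that joins it to the outer root sheath. Keratin filaments pair a type I with a type II chain. In the inner root sheath the type I chains are those of Krt25 to Krt28 and the type II chains those of Krt71 to Krt74, while Krt75 is the type II keratin of the companion layer. Follicles build the inner root sheath from matrix cells during anagen, the growth phase of the hair cycle, and shed it as growth ends. Mutations in Krt25, Krt27 or Krt71 give mice a wavy or curly coat.

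All 9 genes lie on the minus strand. The 4 type I genes span 59 kb of chromosome 11 (GRCm38, chr11:99315516-99374903) and the 5 type II genes lie within 239 kb of chromosome 15 (chr15:101563345-101802346), from Krt75 to Krt73. The annotation lists 8 of them as protein coding, and Krt74 as a transcribed unitary pseudogene. Of the 50-base windows along the exons of Krt25 and Krt27, 10.9% and 11.1% also occur in another gene, for Krt25 in Krt15, Krt27 and Krt28, so reads there may not be split cleanly between these genes. In the other 7 genes this share was 2.43% or less.

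The 250 bases before the annotated start (RefSeq, GRCm38.p6, minus strand, 5′ to 3′) are printed for 4 genes, to set 3 inner root sheath genes beside Krt75, the companion layer gene, which kept a higher level than they did in most of the low libraries. Capitals mark the words TATAAA (the TATA box), AGATAA (a core read by the factor GATA3, a regulator of the inner root sheath) and TAATTA (a core read by homeodomain factors such as DLX3 and MSX2). The 3 sheath genes printed are those whose windows hold all of these words. They do not stand for all sheath genes: Krt26 and Krt72 hold neither AGATAA nor TAATTA.
The windows are chr11:99322952-99323201 for Krt25, chr15:101743098-101743347 for Krt71, chr15:101802361-101802610 for Krt73 and chr15:101573905-101574154 for Krt75.
Krt25: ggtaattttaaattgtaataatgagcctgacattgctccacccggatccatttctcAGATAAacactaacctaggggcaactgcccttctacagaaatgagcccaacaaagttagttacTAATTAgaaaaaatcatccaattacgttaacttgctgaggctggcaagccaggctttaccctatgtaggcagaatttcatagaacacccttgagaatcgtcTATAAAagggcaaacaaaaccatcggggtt
Krt71: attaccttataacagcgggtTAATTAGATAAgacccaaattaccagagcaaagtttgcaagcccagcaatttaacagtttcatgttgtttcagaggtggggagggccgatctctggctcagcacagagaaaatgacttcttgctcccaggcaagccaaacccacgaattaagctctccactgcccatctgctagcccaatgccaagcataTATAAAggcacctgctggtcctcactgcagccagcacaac
Krt73: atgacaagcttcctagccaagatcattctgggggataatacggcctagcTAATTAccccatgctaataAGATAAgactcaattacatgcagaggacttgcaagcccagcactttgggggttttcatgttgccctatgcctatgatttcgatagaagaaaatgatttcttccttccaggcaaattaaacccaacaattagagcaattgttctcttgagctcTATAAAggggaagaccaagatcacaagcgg
Krt75: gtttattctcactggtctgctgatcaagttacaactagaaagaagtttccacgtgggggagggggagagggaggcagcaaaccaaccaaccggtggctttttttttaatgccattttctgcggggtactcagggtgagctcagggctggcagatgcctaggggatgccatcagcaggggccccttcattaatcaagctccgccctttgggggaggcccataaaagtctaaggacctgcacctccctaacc
A promoter sequence was found for 8 of the 9 genes, all but Krt74. Searched on both strands, TATAAA occurred in 7 of the 8 windows, against 12.4% of 32851 promoter windows of the same length. The only match in Krt72 lay on the opposite strand at -203. AGATAA occurred in 4 of 8 (Krt25, Krt27, Krt71 and Krt73) against 9.99% of all windows, and TAATTA in 4 of 8 (Krt25, Krt28, Krt71 and Krt73) against 4.84%. CTTTGA, the core read by LEF1, occurred in 1 of 8 (Krt28) against 13.8%. In Krt71 the words TAATTA and AGATAA overlap by their shared base. None of the 4 words was found in the window of Krt75, although it holds the run cataaaag close to its 3′ end, where the initial letter alone departs from TATAAAag. Krt71 and Krt73 also share the run ttgcaagcccagca, which 2 of the 32851 windows hold, these being the windows of Krt71 and Krt73. These matches describe the letters in the windows and say nothing about binding.

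The libraries held 2808550 to 9617985 counts, so that 3 counts, the detection floor used here, correspond to 0.307 to 1.43 CPM (counts scaled to the size of each library after TMM normalization). Mock ΔEP replicates 2 and 3 had the same count in each of the 52636 genes and entered as 1 library, which leaves 17 libraries and 2 of mock ΔEP skin. Zfp36 lay between 152 and 698 CPM in the 9 fl/fl libraries and between 10 and 37.7 CPM in the 8 ΔEP libraries, which separates the genotypes as labelled in every library. Mock replicate 1 of each genotype stood apart from the other mock libraries in the keratins described here and in other lists of follicle and epidermal genes, with no date or batch given in the labels.

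The 9 keratins together took 1730 CPM in mock fl/fl replicate 1 and 1630 CPM in mock ΔEP replicate 1, but only 10.1 to 15.8 CPM in the other 3 mock libraries. The 6 libraries of treated skin held 368 to 1190 CPM. Tumors held 11.8 to 49.1 CPM in fl/fl mice and 12.5 to 12.8 CPM in ΔEP mice. Thus mock replicate 1 and treated skin were high, tumors were low, and the mock groups split. In sorted cells measured in bulk, fewer inner root sheath cells and less keratin mRNA in each cell cannot be told apart.

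**Figure D1:**
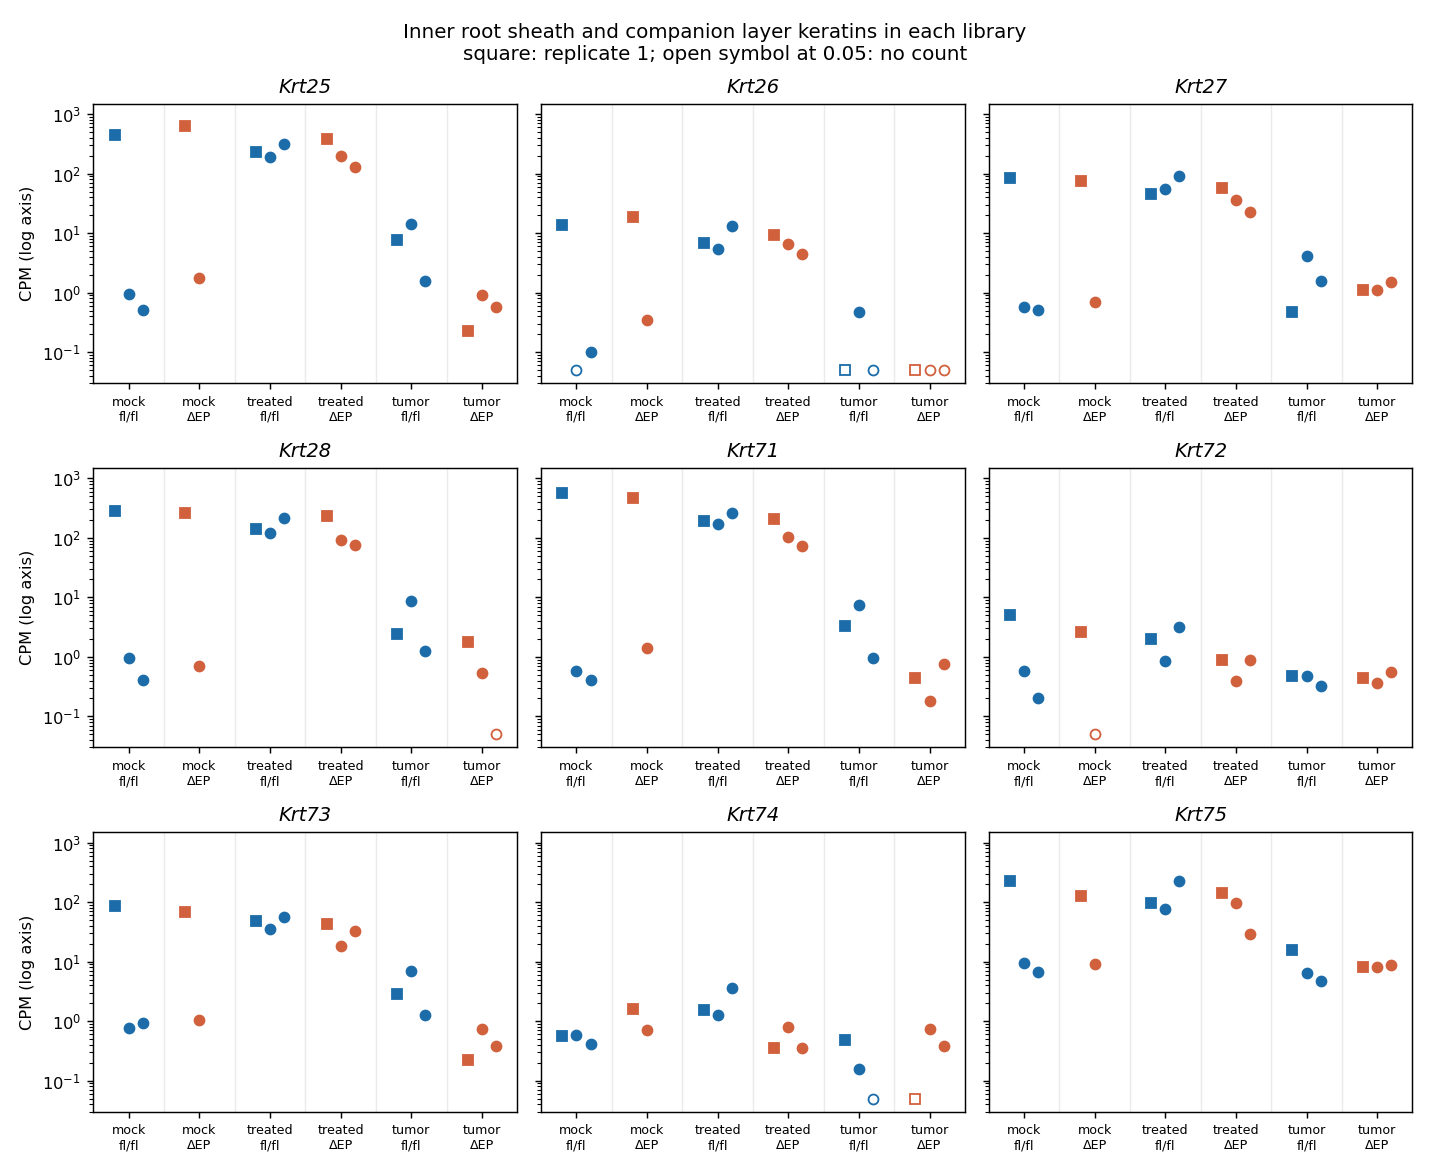
CPM of each keratin in each of the 17 libraries on a log axis, by tissue and genotype (blue fl/fl, red ΔEP), with replicate 1 as a square and libraries without a count as open symbols at 0.05. Krt25, Krt28 and Krt71 stand at 73 CPM or more in mock replicate 1 and in all treated libraries and at 14.4 CPM or less elsewhere, while Krt75 remains at 4.77 to 15.7 CPM in the low libraries.

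Krt25, a type I chain of all layers of the sheath, measured 449, 0.958 and 0.512 CPM in mock fl/fl skin and 623 and 1.76 CPM in mock ΔEP skin. Treated skin held 231, 189 and 319 CPM in fl/fl mice and 377, 197 and 128 CPM in ΔEP mice. Tumors held 7.62, 14.4 and 1.59 CPM in fl/fl mice and 0.223, 0.908 and 0.566 CPM in ΔEP mice. The genotypes overlapped in treated skin, and in tumors every fl/fl library lay above every ΔEP library. The share of all genes whose levels separate the genotypes in this way is not given. Such separations, here and for the keratins below, only describe the values. The 3 ΔEP tumor values rest on 1, 5 and 3 counts, the fl/fl ones on 16, 92 and 5.

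Krt28, the next type I chain in abundance, gave 285, 0.958 and 0.41 CPM in mock fl/fl skin and 258 and 0.704 CPM in mock ΔEP skin. Its treated libraries measured 143, 121 and 216 CPM (fl/fl) and 234, 93.8 and 76.3 CPM (ΔEP). Its tumor libraries measured 2.38, 8.63 and 1.27 CPM (fl/fl) and 1.78, 0.545 and 0 CPM (ΔEP). As for Krt25, the highest tumor was fl/fl replicate 2, but the genotypes overlapped in tumors.

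Krt27, the third abundant type I chain, stood at 85.6, 0.575 and 0.512 CPM in mock fl/fl skin and at 75.3 and 0.704 CPM in mock ΔEP skin. In treated skin it reached 45.2, 54.5 and 90.1 CPM in fl/fl mice and 56.3, 35.5 and 22.8 CPM in ΔEP mice. In tumors it fell to 0.476, 4.08 and 1.59 CPM in fl/fl mice and to 1.11, 1.09 and 1.51 CPM in ΔEP mice. The ΔEP tumors lay within the range of the fl/fl tumors.

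Krt26, a keratin of the inner root sheath cuticle, was the scarcest of the type I genes. Mock replicate 1 gave 13.6 CPM (fl/fl) and 18.8 CPM (ΔEP), against 0, 0.102 and 0.352 CPM in the other mock libraries. Treated skin gave 6.86, 5.38 and 13 CPM in fl/fl mice and 9.26, 6.54 and 4.52 CPM in ΔEP mice. Among tumors only fl/fl replicate 2 had counts, 3 in all (0.471 CPM). With no count in any ΔEP tumor, its level there was at least 11.4-fold lower than in ΔEP treated skin (mean 6.78 CPM against a floor of 0.593 CPM).

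Krt71, the type II partner found in all layers of the sheath, reached 572 CPM in mock fl/fl replicate 1 and 460 CPM in mock ΔEP replicate 1, against 0.575, 0.41 and 1.41 CPM in the other mock libraries. In treated skin it measured 194, 169 and 263 CPM (fl/fl) and 210, 102 and 73 CPM (ΔEP). In tumors it measured 3.33, 7.53 and 0.954 CPM (fl/fl) and 0.446, 0.182 and 0.755 CPM (ΔEP). The genotypes overlapped in treated skin, and the fl/fl tumors lay above the ΔEP tumors without overlap. The ΔEP tumor values rest on 2, 1 and 4 counts, and as for Krt25 the separation only describes the values.

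Krt73, a type II chain of the sheath cuticle, showed 85.9 and 68.9 CPM in mock replicate 1 (fl/fl and ΔEP) and 0.766, 0.922 and 1.06 CPM in the other mock libraries. Treated skin had 48.1, 35.3 and 56.8 CPM in fl/fl mice and 42.4, 18.6 and 32.3 CPM in ΔEP mice. Tumors had 2.86, 6.9 and 1.27 CPM in fl/fl mice and 0.223, 0.726 and 0.377 CPM in ΔEP mice. Here too the tumor groups did not overlap and the treated groups did, with the ΔEP tumor values resting on 1, 4 and 2 counts.

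Krt72 and Krt74 were barely detected. Krt72, also a cuticle keratin, ran from 0 to 5.09 CPM, with its highest value in mock fl/fl replicate 1 (46 counts) and its next highest, 3.15 CPM, in treated fl/fl replicate 3. Krt74 ran from 0 to 3.54 CPM with at most 27 counts in a library. In mock fl/fl skin it gave 0.553 CPM in replicate 1 beside 0.575 and 0.41 CPM in the other 2 libraries, and in mock ΔEP skin 1.58 CPM in replicate 1 (6 counts) beside 0.704 CPM in replicate 2 (2 counts). The 3 treated fl/fl libraries gave 1.55, 1.29 and 3.54 CPM for Krt74, all above the 0.356, 0.785 and 0.348 CPM of treated ΔEP skin. These ΔEP values rest on 2, 6 and 2 counts, and the share of all genes separated in this way is not given.

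Krt75, the companion layer keratin, gave 229, 9.58 and 6.66 CPM in mock fl/fl skin and 126 and 9.15 CPM in mock ΔEP skin. Treated skin held 96.5, 76 and 226 CPM in fl/fl mice and 140, 96.7 and 29.4 CPM in ΔEP mice. Tumors held 15.7, 6.43 and 4.77 CPM in fl/fl mice and 8.25, 7.99 and 8.68 CPM in ΔEP mice. Unlike the other keratins it never fell to the floor: its lowest library, tumor fl/fl replicate 3, still had 15 counts.

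Compared per kb of exon, Krt25 had the highest mean level in treated fl/fl skin (124 ± 33.4 CPM per kb, SD, n = 3), followed by Krt28 (98.5 ± 30.6), Krt71 (95.4 ± 22.4), Krt27 (40.8 ± 15.3), Krt75 (40.7 ± 24.9), Krt73 (21.6 ± 4.98), Krt26 (2.29 ± 1.1), Krt74 (1.29 ± 0.747) and Krt72 (1 ± 0.573). Of the neighbours in this order, Krt25 and Krt28, Krt28 and Krt71, Krt27 and Krt75, Krt75 and Krt73, Krt26 and Krt74, and Krt74 and Krt72 differed by less than the larger of their SDs. In treated ΔEP skin Krt25 (118 ± 64.6 CPM per kb) and Krt28 (83 ± 53.3) again led, then Krt71 (58.7 ± 33), Krt75 (27.1 ± 17), Krt27 (24.6 ± 10.9) and Krt73 (14.3 ± 5.51), and the rest lay at 1.85 ± 0.648 (Krt26), 0.36 ± 0.141 (Krt72) and 0.301 ± 0.152 (Krt74).

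The make-up of the keratin signal was set out by library. Krt25 made up 27.9% to 37.2% of the summed CPM per kb in treated skin and 27.1% and 38.7% in mock replicate 1, and its share was 27.8% and 29.9% in tumor fl/fl replicates 1 and 2 too, against 2.25% to 15.2% in the other low libraries. Krt75 made up 4.85% to 12% in treated skin, against 45% to 52.7% in the other 3 mock libraries and 49.1% to 53.7% in ΔEP tumors. The fl/fl tumors ranged from 8.12% (replicate 2) to 34.9% (replicate 1). The ratio of type I to type II chains per kb, with Krt74 and Krt75 left out, was 2.1 to 3.28 in treated skin. It was 1.51 and 2.16 in mock replicate 1, and overlapped with these values in the other mock libraries (1.21 to 1.65) and in tumors (1.57 to 3.64). Krt74 took 6.2% to 6.86% of the summed CPM per kb in the other 3 mock libraries, so the ratio there would be lower with it. The overlap of those 3 mock libraries holds only without Krt74. Shares and ratios in the low libraries rest on 37 to 313 counts over the 9 genes.

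**Figure D2:**
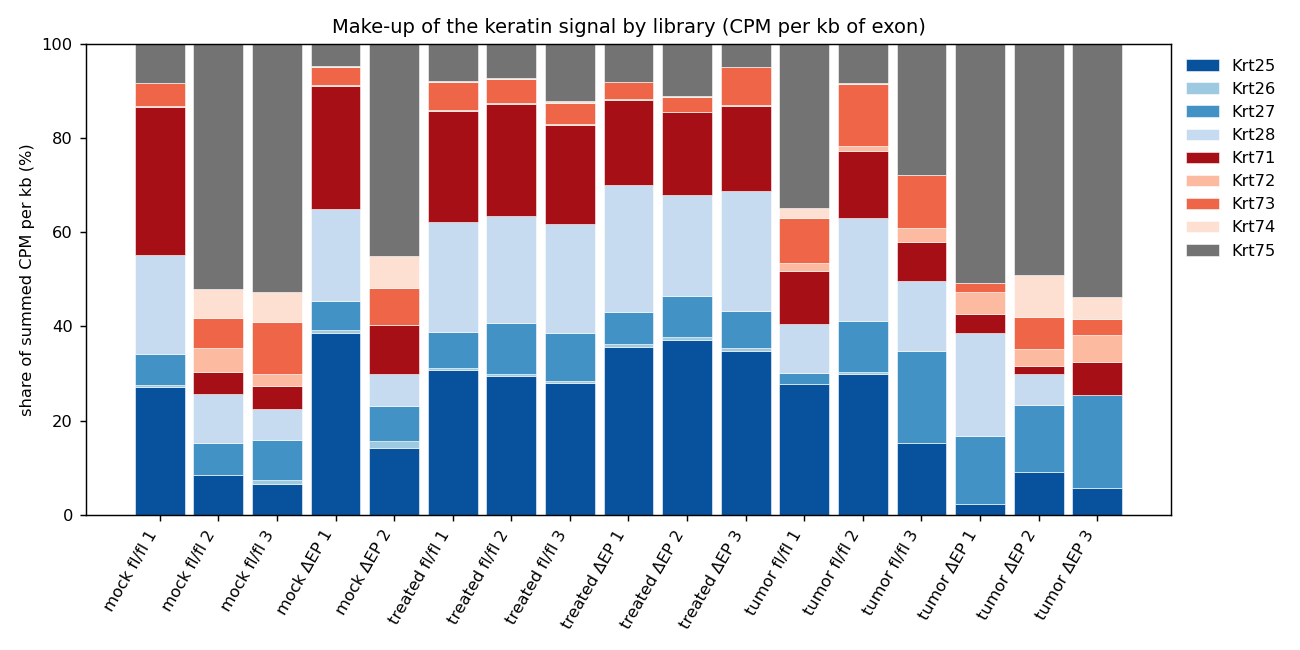
Share of each keratin in the summed CPM per kb of exon (%) for each library, with type I genes in blue, inner root sheath type II genes in red and Krt75 in grey. Krt75 takes 4.77% to 12% in mock replicate 1 and treated skin and 45% to 53.7% in the other mock libraries and the ΔEP tumors.

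Within treated skin the proportions of the keratins were also set side by side between genotypes, a choice made after the values were seen. Krt71 over Krt25, as a ratio of CPM, was 0.841, 0.89 and 0.824 in fl/fl mice and 0.557, 0.516 and 0.57 in ΔEP mice. Krt27 over Krt25 was 0.196, 0.287 and 0.282 in fl/fl mice and 0.149, 0.18 and 0.178 in ΔEP mice. Both ratios were lower in ΔEP skin without overlap, although each gene alone overlapped between genotypes, and the ratios of Krt26, Krt28, Krt73 and Krt75 to Krt25 overlapped. Of 16231 genes set over Krt25, 0.838% were lower in ΔEP skin without overlap, beside 2 of these 6 keratins, which share Krt25 as denominator. In mock replicate 1 Krt71 over Krt25 was 1.27 in the fl/fl library and 0.737 in the ΔEP library.

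Across the 17 libraries the 7 abundant genes ran together, with Pearson r of log2 CPM of 0.91 or more for each pair. Krt72 correlated at 0.74 to 0.81 with them and Krt74 at 0.53 to 0.67. The points share the depth of each library and its tissue, so these values only describe the pattern.

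Beyond the keratins, the genes whose log2 CPM ran most like the summed keratins were Krtap8-1 (r = 0.983 over 17 libraries), Fut4 (0.983), Dlx3 (0.982), Krt83 (0.979), Gm37393 (0.976), Cdh6 (0.973), Mycn (0.973), Krt86 (0.972), Crhr1 (0.972) and Tchh (0.972). Krtap8-1 encodes a hair shaft protein, Krt83 and Krt86 are hair shaft keratins, Dlx3 encodes a homeodomain factor, and Tchh encodes trichohyalin, which cross-links the keratin filaments of the inner root sheath. Dlx3 measured 61.9 to 215 CPM in mock replicate 1 and treated skin and 1.06 to 5.49 CPM in the other 8 libraries. Tchh measured 140 to 704 CPM against 9.2 to 41.2 CPM in the same libraries. The genes most like Krt75 were Gm44460 (0.967), Myb (0.966), Ggt1 (0.962), Ttyh3 (0.961) and Gm44346 (0.959).

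Lists of other skin genes were summed in the same libraries. Hair shaft keratins (12 found of 13 listed) held 192 and 232 CPM in mock replicate 1, 7.47 to 12.3 CPM in the other mock libraries, 48.7 to 189 CPM in treated skin and 1.91 to 52.6 CPM in tumors, with the tumor maximum again in fl/fl replicate 2. Regulators of the hair matrix and of anagen (8 genes, among them Lef1, Msx2, Hoxc13 and Shh) held 897 and 971 CPM in mock replicate 1 against 191 to 478 CPM in the other mock libraries. They held 446 to 876 CPM in treated skin and 181 to 398 CPM in tumors. Within the list Foxn1 (17.5 to 18 against 14.8 to 19.4 CPM) and Ovol1 (248 to 263 against 160 to 445 CPM) overlapped between mock replicate 1 and the other mock libraries. Ovol1 made up most of the sum in the other mock libraries and in tumors. Shh, the signal of growing matrix, measured 5.37 to 23.7 CPM in treated skin and 0.476 CPM or less in tumors. Genes of the interfollicular epidermis ran the other way in mock skin, at 2600 and 2760 CPM in replicate 1 and 17000 to 19000 CPM in the others. The bulge and outer root sheath list summed to 447 and 496 CPM against 1690 to 2640 CPM, mostly from Krt15 (264 to 281 against 1500 to 2480 CPM). Within it Nfatc1 was also lower in replicate 1, Sox9 and Cd34 overlapped, and Lgr5 (38.9 to 43.9 against 18.3 to 20.5 CPM) and Lhx2 (54.4 to 54.7 against 10.2 to 17.1 CPM) were higher. The melanocyte list gave 272 and 319 CPM in mock replicate 1, 40.1 to 91 CPM in the other mock libraries and 8.59 to 38.1 CPM in tumors. In treated skin it ran from 51.7 to 363 CPM and, unlike the keratins, overlapped with the other mock libraries. The leukocyte list stayed at 6.52 CPM or less and the muscle list at 4.59 CPM or less, while the fibroblast list ran from 537 to 1640 CPM in all mock libraries, from 370 to 948 CPM in treated skin and from 30.2 to 387 CPM in tumors, although the sort excluded CD140a+ cells. Within that list Dcn was at 165 to 836 CPM in treated skin and 0.189 to 10.4 CPM in tumors, whereas Col1a1 was at 41.6 to 259 CPM and 17 to 189 CPM and was not called for tumors against treated skin in either genotype (-0.79, SE 0.31 in fl/fl mice and -0.17, SE 0.87 in ΔEP mice). The endothelial list ran from 8.17 to 37.8 CPM and the Merkel cell list from 0.352 to 39.9 CPM. The sebaceous list ran from 475 to 914 CPM in all but tumor fl/fl replicates 2 and 3, where its highest value was 6730 CPM. The part that any of these cell populations had in the keratin values was not tested.

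**Figure D3:**
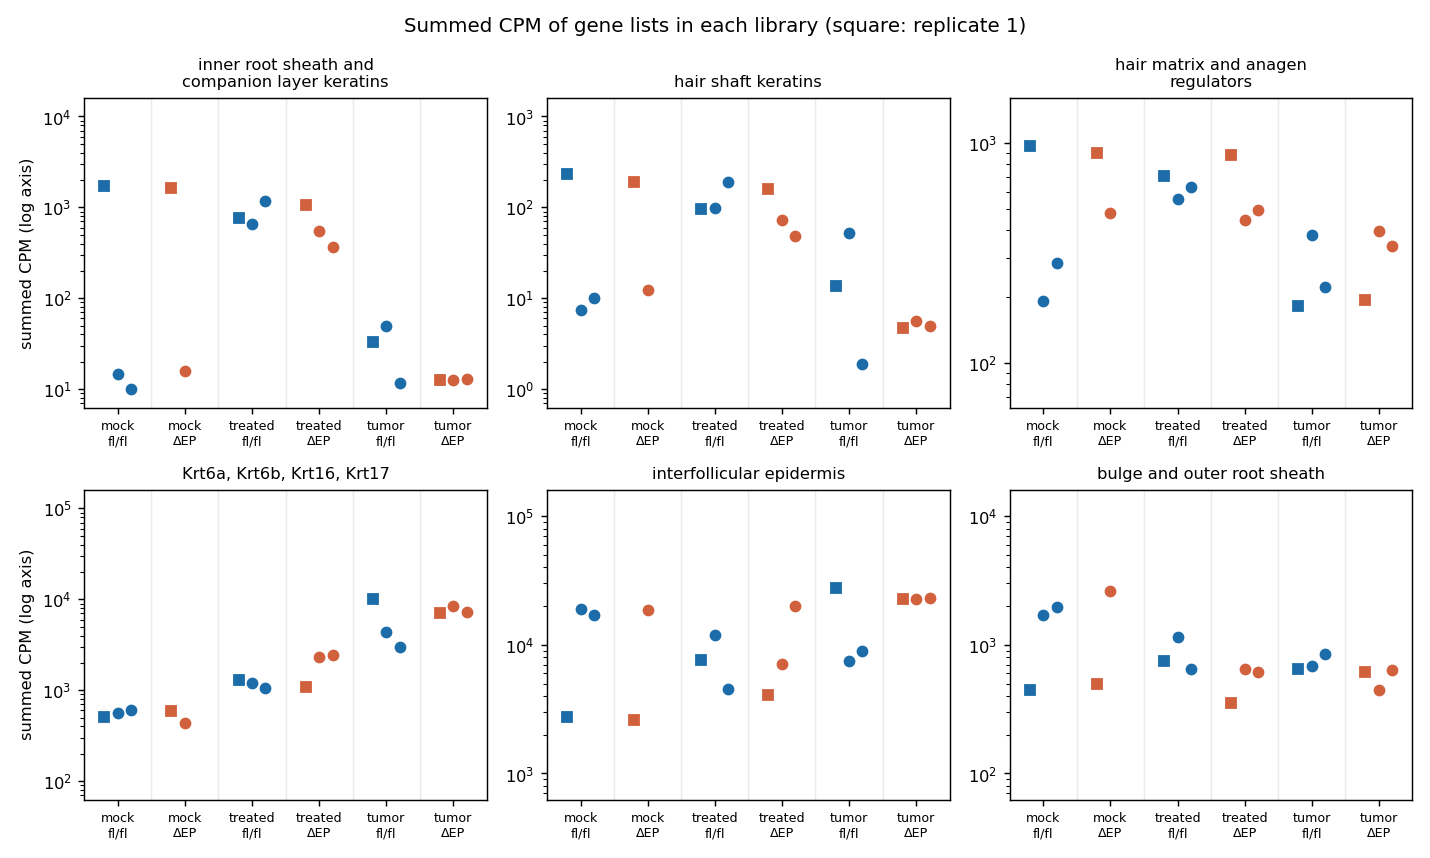
Summed CPM of 6 gene lists in each of the 17 libraries on log axes, by tissue and genotype (blue fl/fl, red ΔEP; squares are replicate 1). Mock replicate 1 is high for the follicle lists in the top row, where it holds 1630 and 1730 CPM of the inner root sheath and companion layer keratins. It is low for the interfollicular sum and for the bulge sum, which is mostly Krt15. The Krt6a, Krt6b, Krt16 and Krt17 panel is highest in tumors.

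Tumors were compared with treated skin in each genotype to ask how the keratins change from nontumoral skin to papilloma. In fl/fl mice 7 of the 7 keratins tested were lower in tumors, and in ΔEP mice likewise 7 of 7 (edgeR quasi-likelihood F test, called at more than a 2-fold change and a Benjamini-Hochberg adjusted p below 0.05). Over all genes tested, 10.5% were called lower in fl/fl tumors and 15.5% in ΔEP tumors. Krt72 and Krt74 did not pass the low-count filter, and the others passed it through treated skin, where they were high, so these counts describe the keratins and do not support a difference by themselves. Leaving out any 1 library left 7 or more called in each genotype.

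In fl/fl mice the log2 fold changes ran from -3.55 for Krt73 (SE 0.47, edgeR adjusted p = 0.003153) to -5.6 for Krt71 (SE 0.53, adjusted p = 0.001212). Between them stood Krt25 at -4.92 ± 0.59 (SE), Krt26 at -5.02 ± 0.78, Krt27 at -4.71 ± 0.53, Krt28 at -5.13 ± 0.56 and Krt75 at -3.98 ± 0.59. The median of the 7 was -4.92, against -0.02 over all genes tested. When all libraries shared 1 estimate of the spread, which then held the divergent mock libraries, 2 of 9 were called in fl/fl mice. These 9 include Krt72 and Krt74, which the main fit did not test. In that fit 7.52% of all genes were called lower. The fold changes themselves stayed close, for example -4.9 ± 1.92 for Krt25 (edgeR adjusted p = 0.08206).

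In ΔEP mice the log2 fold changes reached -8.68 for Krt25 (SE 0.61, edgeR adjusted p = 0.0001728), -8.15 for Krt71 (SE 0.62, adjusted p = 0.0001728), -7.57 for Krt28 (SE 0.78), -6.1 for Krt73 (SE 0.48) and -5.01 for Krt27 (SE 0.44). Krt75 changed least, by -3.51 (SE 0.54, adjusted p = 0.002086). Krt26 had no count in these tumors, and its bound of at least 11.4-fold lower stands in place of a fitted value. Krt25, Krt71 and Krt73 averaged 0.566, 0.461 and 0.442 CPM there, also below the floor of 0.593 CPM used for that bound. The sizes of their fitted changes, and of the genotype differences below that use them, therefore rest on few counts. The median of the 7 was -7.57 as fitted and -6.1 with Krt26 at its bound, against -0.03 over all genes.

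**Figure D4:**
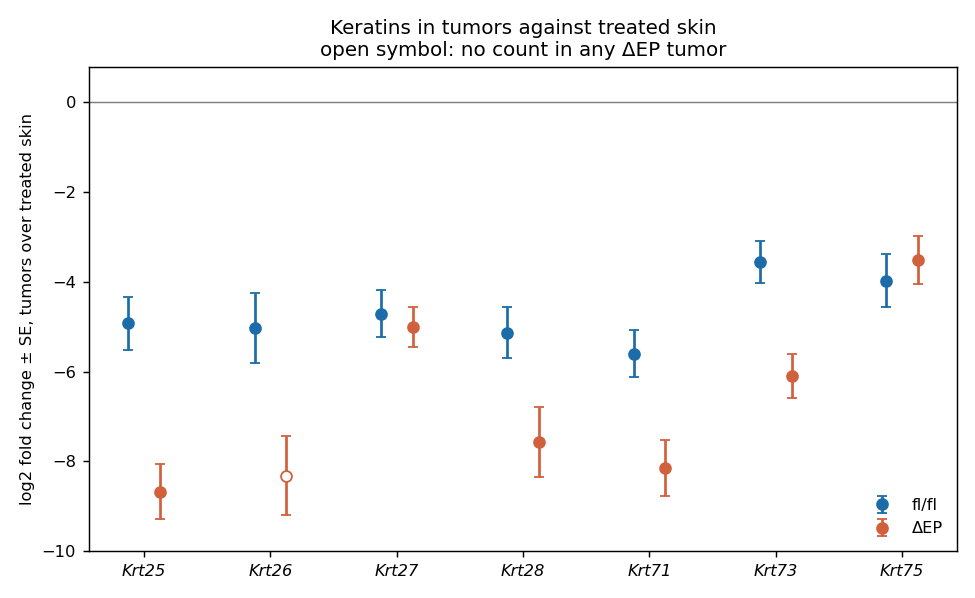
Fitted log2 fold change with its SE for tumors over treated skin, for the 7 keratins tested in fl/fl mice (blue) and ΔEP mice (red), with Krt26 open where no ΔEP tumor had a count. Krt25 reads -4.92 and -8.68, whereas Krt27 reads -4.71 and -5.01 and Krt75 -3.98 and -3.51. The ΔEP values of Krt25, Krt71 and Krt73 come from tumors whose mean level lay below the detection floor.

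Whether the change from treated skin to tumor differed between genotypes was tested as an interaction. None of 7 keratins was called (edgeR, 0.0118% of all genes called), 4 had an unadjusted p under 0.05, and DESeq2 called 1, Krt25, lower in ΔEP mice, against 0.758% of all genes called lower. The difference of log2 fold changes (ΔEP minus fl/fl) was -3.76 for Krt25 (SE 0.95, edgeR adjusted p = 0.2065), -2.54 for Krt71 (SE 0.95) and for Krt73 (SE 0.79), -2.45 for Krt28 (SE 1.08), -0.3 for Krt27 (SE 0.73) and 0.49 for Krt75 (SE 0.83). Without the low-count filter, 4 of 9 were called, namely Krt25, Krt28, Krt71 and Krt73, all lower in ΔEP mice, against 1.56% of all genes called lower. Without tumor fl/fl replicate 1, 1 was called (Krt25, edgeR adjusted p = 0.03888), against 4.04% of all genes called lower in that fit, and without tumor fl/fl replicate 2 the value of Krt28 shrank to -1.04 and that of Krt71 to -1.41.

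Between tumors of the 2 genotypes only Krt75 passed the filter, and its difference was smaller than its error (log2 fold change -0.21, SE 0.45, edgeR adjusted p = 0.8641). None of 1 was called or had an unadjusted p under 0.05, DESeq2 called 0, and 0.0284% of all genes were called. Without the filter, 4 of 9 keratins were called lower in ΔEP tumors, against 1.92% of all genes: Krt25 at -3.7 (SE 0.62), Krt71 at -3.06 (SE 0.74), Krt73 at -2.99 (SE 0.75) and Krt28 at -2.49 (SE 0.68). Tumor fl/fl replicate 2 had the highest value of each of these 4, and it also held 36.4 CPM of the hair shaft keratin Krt35, the fl/fl tumor maximum. Without tumor fl/fl replicate 1, 1 of 2 keratins tested was called lower (Krt28 at -2.9, SE 0.9, edgeR adjusted p = 0.04281), against 9.58% of all genes in that fit.

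In treated skin none of 7 keratins was called between genotypes (edgeR, 0.00616% of all genes called, 0 keratins at an unadjusted p under 0.05, 0 by DESeq2). The log2 fold changes (ΔEP over fl/fl) were all below 0, from -0.09 for Krt25 (SE 0.39) to -0.75 for Krt27 (SE 0.37, edgeR adjusted p = 0.9043), with -0.72 for Krt71 (SE 0.38), -0.63 for Krt73 (SE 0.3), -0.6 for Krt75 (SE 0.58), -0.35 for Krt26 (SE 0.4) and -0.27 for Krt28 (SE 0.43). In mock skin none of 8 keratins was called (0% of all genes, 0 keratins at an unadjusted p under 0.05, 0 by DESeq2), and the SE of the log2 fold changes, 1.75 to 2.99, was set by the split within both groups. The interaction of genotype with the change from mock to treated skin called none of 9 (0% of all genes, 0 by DESeq2), with 1 keratin, Krt74, at an unadjusted p under 0.05 (-3.29, SE 0.93, edgeR adjusted p = 1).

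Treated skin was compared with mock skin to ask whether the protocol itself moved the keratins. In fl/fl mice none of 8 was called (0% of all genes, 0 keratins at an unadjusted p under 0.05, 0 by DESeq2), and the log2 fold changes lay between 0.02 and 1.11 with SE up to 2. This rests on mock fl/fl replicate 1: without it, 8 of 9 keratins were called higher in treated skin, against 7.97% of all genes. That library was set apart by these same keratins, and without it most of them passed the low-count filter only through treated skin. The count therefore describes the values and does not support a difference by itself. In that fit Krt71 read 8.82 (SE 0.37, edgeR adjusted p = 0.0001726), Krt25 8.55 (SE 0.41) and Krt75 4.12 (SE 0.55), and Krt74 read 2.22 (SE 0.68, adjusted p = 0.05042). In ΔEP mice none of 7 was called (0% of all genes, 0 at an unadjusted p under 0.05, 0 by DESeq2), with log2 fold changes from -0.88 for Krt71 (SE 1.49) to 0.35 for Krt75 (SE 1.04). Without mock ΔEP replicate 1 the remaining mock library is assumed to vary like the treated ones, and 0 of 7 keratins were called, as were 0% of all genes, although the fitted changes were large: 7.01 for Krt25 (SE 1, edgeR adjusted p = 0.0755), 6.46 for Krt71 (SE 0.99, adjusted p = 0.0821) and 3.25 for Krt75 (SE 0.98, adjusted p = 0.1838).

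Tumors were last set against mock skin. In fl/fl mice none of 5 keratins was called, 1 (Krt75) had an unadjusted p under 0.05, DESeq2 called 0, and 1.88% of all genes were called lower. The log2 fold changes ran from -2.97 for Krt73 (SE 1.68) to -5.57 for Krt71 (SE 2.44). Without mock fl/fl replicate 1 the direction turned: Krt25 read 3.5 (SE 0.95, edgeR adjusted p = 0.0386), the 1 call among 4 tested, against 9.45% of all genes called higher in that fit, while Krt75 read 0.14 (SE 0.57). In ΔEP mice only Krt75 passed the filter and it was not called (-3.16, SE 0.89, edgeR adjusted p = 0.05803, 1 of 1 at an unadjusted p under 0.05, 1 by DESeq2, 7.22% of all genes called lower). With mock ΔEP replicate 1 as the lone mock library, its spread assumed to be that of the tumors, 7 of 8 were called lower, against 8.92% of all genes, Krt25 at -10.03 (SE 0.35). With mock ΔEP replicate 2 as the lone mock library 0 of 1 was called, against 13.4% of all genes, Krt75 at -0.2 (SE 0.38, edgeR adjusted p = 0.7034). The interaction of genotype with the change from mock skin to tumors called none of 8 (0% of all genes, 0 at an unadjusted p under 0.05, 0 by DESeq2).

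Other genes of the same lineages were counted by the same call, with tumors against treated skin. Among all genes tested, 10.5% were called lower and 7.5% higher in fl/fl mice, and 15.5% lower and 10.5% higher in ΔEP mice. Of the hair matrix and anagen regulators 7 of 8 tested were lower in each genotype, with Lef1 at -4.73 (SE 0.72) in fl/fl mice and -6.95 (SE 0.52) in ΔEP mice, and with Ovol1, the one not called, at 0.17 (SE 0.27) and 0.33 (SE 0.28). Of the inner root sheath genes other than keratins 4 were lower and 1 higher among 9 tested in fl/fl mice, and 4 lower among 8 in ΔEP mice. Tchh was lower in both, at -4.29 (SE 0.46) and -3.4 (SE 0.46), as were Cux1, a homeodomain factor of the sheath, and Lpar6, a lipid receptor of the follicle. Gata3 was not called in fl/fl mice (-0.47, SE 0.23) and did not run with the keratins in mock skin. It held 168 to 197 CPM in mock replicate 1, 606 to 686 CPM in the other mock libraries and 120 to 250 CPM in treated skin. Padi3, a peptidylarginine deiminase that acts on trichohyalin, was lower in fl/fl mice at -3.77 (SE 0.78) and read 0.35 (SE 0.58) in ΔEP mice, while Cst6, a protease inhibitor, was lower in ΔEP mice at -5.26 (SE 0.35) and read 0.16 (SE 0.94) in fl/fl mice. Of the 12 hair shaft keratins found, 4 of 9 tested were lower in fl/fl mice and 4 of 4 tested in ΔEP mice, Krt35 reading -7.6 (SE 0.75) in the latter. The rest did not pass the low-count filter. Genes of these lists that passed it only through treated skin, such as Krt35 in ΔEP mice and Shh, were kept because they were high there. These counts describe the lists and do not support a difference by themselves. The keratins that the companion layer shares with activated epidermis went the other way from Krt75: 3 of 4 were higher in tumors in each genotype, namely Krt6a, Krt6b and Krt16, with Krt6a at 3.89 (SE 0.6) and 2.87 (SE 0.44). Bulge and outer root sheath genes gave 3 lower and 1 higher of 6 in fl/fl mice and 2 lower and 1 higher of 6 in ΔEP mice, while interfollicular genes gave 0 called of 5 in fl/fl mice and 2 higher and 1 lower of 5 in ΔEP mice.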

How the data were processed

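Sorted epidermal cells gave RNA (RNeasy Plus Micro) for Ovation SoLo libraries sequenced on an Illumina HiSeq. The authors deposited raw counts per gene in 18 columns, 3 for each of 6 groups. The submitters' processing notes name mm10, Trimmomatic 0.36, STAR 2.5.3, HTSeq 0.9.1 and DESeq2 without a version, and the study states edgeR for its comparisons. The annotation release and the handling of strand and duplicates are not given in the sources used here, so precision from counts covers counting error only. Workbooks with the authors' own comparisons were not used here.

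The 9 keratins, the 14 gene lists and the tests were chosen with earlier results of these data known. Each comparison was fitted on the libraries of its own groups with edgeR 4.0.16 (R 4.3.3, limma 3.58.1): default filterByExpr, TMM scaling, two-sided quasi-likelihood F test, Benjamini-Hochberg adjustment over all genes tested, and a call above a 2-fold change with adjusted p below 0.05. Interactions contrasted 2 differences over 4 groups. CPM used TMM-scaled sizes over 17 libraries. Likeness was Pearson r of log2 CPM (prior count 2) over 18252 genes. Named genes were the keratins, Zfp36, list members that were called or near their list's median, and the 10 genes most like the summed keratins (5 for Krt75). Alternatives were RLE scaling, no filter, DESeq2 1.42.0, a single fit of all libraries, a replicate block, each library left out, and the identical columns as 2 libraries. The scripts were tested on simulated data. Positions came from GRCm38 with GENCODE, promoters from RefSeq.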

Additional observations from a re-analysis of the deposited data

How the results depend on the processing

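Of 154 alternative values of the 14 called fold changes, 147 stayed called and 0 changed sign. The other 7 came from the single fit of all libraries, which called 2 of 9 keratins for tumors against treated skin in fl/fl mice and 6 of 9 in ΔEP mice, where Krt75 was lost. These 9 include Krt72 and Krt74, untested in the main fit, and the 2 called in fl/fl mice are not both calls kept from it. The same fit added 5 calls of 9 for tumors against mock ΔEP skin, against 8.69% of all genes called lower. For tumors against treated skin its shares of all genes called lower were 7.52% in fl/fl mice and 10.6% in ΔEP mice. Of 805 alternative values of fold changes that were not called, 92 changed sign, 1 of them as a call: Krt25 in fl/fl tumors against mock skin, at 3.5 without mock fl/fl replicate 1 and down to -5.11 with other libraries left out. Without the low-count filter 4 keratins were called between tumors of the genotypes (1.92% of all genes called lower). For tumors against mock skin 7 were called in fl/fl mice (4.37% of all genes lower) and 7 in ΔEP mice (6.57%). The interaction of genotype with tumors against mock skin then had 1 call (0.303%), and that with tumors against treated skin had 4 (1.56%). Each of these counts was 0 with the filter. DESeq2 called 1 keratin for tumors against mock skin in ΔEP mice and 1 for the interaction with tumors against treated skin. The shares of all genes it called lower there were 8.79% and 0.758%. With 1 library left out, calls ran from 0 to 1 between tumors of the genotypes, from 0 to 8 for treated against mock skin in fl/fl mice, from 0 to 1 for tumors against mock skin in fl/fl mice, from 0 to 7 in ΔEP mice, and from 0 to 1 for the interaction with tumors against treated skin. Of the 10 genes most like the keratins, 5 remained with a prior count of 0.5 and 1 with Spearman rho. The cause of these shifts was not tested. Values of Krt72, Krt74 and all keratins in the low libraries are limited by depth, at 3 counts per 0.307 to 1.43 CPM.

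Replicate numbers are shared across groups, but no source says that they mark a pair. Same-numbered libraries deviated from their group means with r from -0.55 to -0.12 in treated skin of the genotypes and from -0.07 to 0.25 in tumors, and no comparison with 3 pairs had r over 0.1 in every pair. With 2 pairs, r was 0.57 and 0.78 in mock skin of the genotypes, 0.14 and 0.57 in ΔEP treated against mock skin and 0.09 and 0.12 in ΔEP tumors against mock skin. With the replicate block, 7 keratins were called for tumors against treated skin in each genotype and 0 in every other comparison, as without it, while over all genes the calls between genotypes in mock skin went from 0 to 110.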

Other observations

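The lower ratio of Krt71 to Krt25 in treated ΔEP skin was noticed in these data and then tested on them. The mean log2 ratio was lower than in treated fl/fl skin by a difference of -0.64 (SD 0.06 in fl/fl and 0.07 in ΔEP skin, n = 3 each), in 3 of 3 libraries. The two-sided exact permutation test gave p = 0.1, the smallest that 3 against 3 libraries can give. For groups already seen not to overlap this test can return no other value, so it adds no support to the difference. Part of the exons of Krt25 is shared with Krt27 and Krt28, and the part of ambiguous reads in this ratio was not tested.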
